A study of Mus musculus with 12 samples.

Results

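The genes described here are 50 named genes of the cell division cycle, taken by symbol from a table of 23955 gene symbols. By textbook role they fall into 3 classes: 10 G1 regulators, 17 genes of DNA replication and nucleotide supply, and 23 genes of mitosis. Of the 50, 47 had enough reads for a test, which are all 17 replication genes, 22 of 23 mitotic genes and 8 of 10 G1 regulators. Ccne1, E2f2 and Cdc25c were too low to test.

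Their RNA was measured in mouse mesenchymal stem cells, stromal cells of the bone marrow that can turn into fat cells. Female mice of the strain C57BL/6 were the source of the cells, which were at passages 9 to 10, grew for 72 hours to confluence and then differentiated for 14 days. The cells of all 12 libraries, controls included, received a fat-cell induction cocktail with insulin at 5 ug/mL, dexamethasone at 1 uM and isobutylmethylxanthine at 0.5 mM, so no group shows these cells without induction. The 3 groups of 4 libraries differ in what was added to the cocktail: the vehicle DMSO at 0.1%, rosiglitazone at 500 nM (ROSI, a synthetic ligand of the fat-cell receptor PPARγ), or tributyltin at 50 nM (TBT, an organotin that binds the retinoid X receptors and PPARγ). Nothing in the labels ties the 4 libraries of a group to separate cultures or animals, so a p-value here reflects only their own spread, which could be technical.

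A dividing cell commits to a new round in G1, when D-type cyclins with Cdk4 or Cdk6 and E-type cyclins with Cdk2 release E2F factors from the retinoblastoma proteins. E2F then switches on the genes that load the replicative helicase, copy DNA and supply nucleotides, and a later wave, driven by B-MYB, FOXM1 and the MuvB complex, switches on the genes of G2 and mitosis. In resting cells both sets are held down by repressor complexes of retinoblastoma family proteins with E2F and MuvB, and the Cdk inhibitor p21 (Cdkn1a) favours that state. Fat-cell precursors in culture can divide after induction and leave the cycle as they mature.

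A few promoters are shown because the factors of both waves read different letters. E2F factors bind sites such as GCGGGAA or GCGCGAA, while MuvB binds the cell cycle genes homology region, or CHR, with the letters TTTGAA or TTCGAA. The sequences are from RefSeq on the build GRCm38.p6, are written 5′ to 3′ along the gene's own strand, and end before the gene's transcribed span. Capitals mark matches on either strand of 1 motif per gene. In the 5 mitotic genes shown they mark CHR letters, and the E2F letters of Cdk1 stay in lower case. These are Mki67, at chr7:135716451-135716549 on the minus strand, Top2a, at chr11:99024200-99024359 on the minus strand, Cdk1, at chr10:69352939-69353082 on the minus strand, Cdc20, at chr4:118437353-118437513 on the minus strand, and Kif11, at chr19:37376212-37376381 on the plus strand. In the 3 replication genes shown they mark E2F letters. These are Mcm6, at chr1:128359706-128359875 on the minus strand, Rrm1, at chr7:102441525-102441694 on the plus strand, and Mcm5, at chr8:75109339-75109467 on the plus strand.
Mki67: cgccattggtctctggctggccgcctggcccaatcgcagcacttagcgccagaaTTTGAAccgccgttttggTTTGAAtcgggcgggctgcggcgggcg
Top2a: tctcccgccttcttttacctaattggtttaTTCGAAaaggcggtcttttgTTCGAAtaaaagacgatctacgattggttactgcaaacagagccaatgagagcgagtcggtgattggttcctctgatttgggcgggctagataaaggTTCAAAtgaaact
Cdk1: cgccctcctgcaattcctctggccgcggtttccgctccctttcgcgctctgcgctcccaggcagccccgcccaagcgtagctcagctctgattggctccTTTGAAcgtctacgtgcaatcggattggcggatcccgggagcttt
Cdc20: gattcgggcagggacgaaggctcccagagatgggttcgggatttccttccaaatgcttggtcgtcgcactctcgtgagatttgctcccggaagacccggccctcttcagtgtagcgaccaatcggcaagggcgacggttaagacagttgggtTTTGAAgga
Kif11: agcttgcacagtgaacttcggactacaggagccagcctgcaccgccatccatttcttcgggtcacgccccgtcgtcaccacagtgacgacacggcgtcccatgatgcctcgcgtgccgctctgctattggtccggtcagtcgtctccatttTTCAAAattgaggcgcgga
Mcm6: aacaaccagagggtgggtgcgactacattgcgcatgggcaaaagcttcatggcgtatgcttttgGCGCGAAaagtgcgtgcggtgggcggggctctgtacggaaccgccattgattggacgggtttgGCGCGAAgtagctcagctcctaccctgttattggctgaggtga
Rrm1: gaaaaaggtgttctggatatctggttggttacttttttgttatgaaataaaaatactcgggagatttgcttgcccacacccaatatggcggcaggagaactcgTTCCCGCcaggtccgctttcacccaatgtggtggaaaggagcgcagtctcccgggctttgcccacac
Mcm5: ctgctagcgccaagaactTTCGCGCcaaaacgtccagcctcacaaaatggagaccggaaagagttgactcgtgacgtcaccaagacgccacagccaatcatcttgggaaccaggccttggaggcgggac

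Windows from 250 bases before to 50 bases after the start were on hand for 39 of the 50 genes, and each was searched for both forms of each motif on both strands. CHR letters were in the window of 14 of 18 mitotic genes (77.78%), 2 of 14 replication genes (14.29%) and 1 of 7 G1 regulators, against 19.23% of all 32851 windows. E2F letters showed the opposite split, with 9 of 14 replication genes (64.29%), 1 of 18 mitotic genes and 1 of 7 G1 regulators, against 6.003% of all windows. The box CCAAT, which binds NF-Y and often lies beside a CHR, was in 16 of 18 mitotic, 9 of 14 replication and 3 of 7 G1 windows, against 37.41% of all windows. In the windows of these genes, 1 pair of different motifs overlapped. The mitotic windows without CHR letters were those of Birc5, Ccnb1, Cenpe and Nusap1. The replication genes with CHR letters were Mcm2 and Mcm7, and the mitotic gene with E2F letters was Cdk1. A match is a description of the letters, not a measured binding site.

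**Figure D1:**
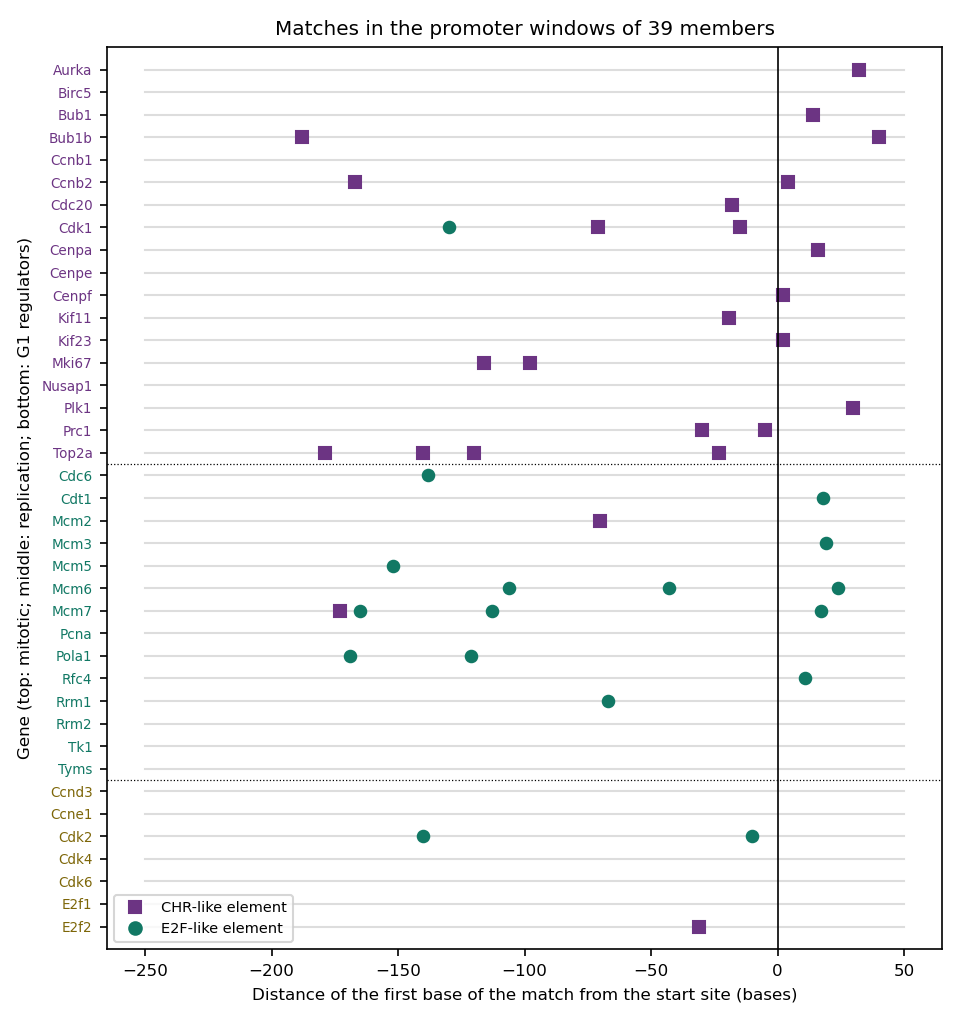
Positions of CHR letters (squares) and E2F letters (circles) in the promoter windows of 39 genes, by distance in bases from the start site (vertical line). Each horizontal line is a gene, with mitotic genes at the top, replication genes in the middle and G1 regulators at the bottom. Squares fall mostly on mitotic genes (14 of 18) and circles mostly on replication genes (9 of 14).

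Library totals ran from 4027152 to 7474654 reads, and levels are given as CPM, a count scaled to the library size after TMM normalization, in the order of replicates 1 to 4. TBT replicate 4 stood apart from the other TBT libraries: the ribosomal RNA precursor Rn45s took 6.85% of its reads against 0.399% to 0.670% in those. DMSO libraries held 2.64% to 6.18% and ROSI libraries 1.36% to 9.27%, so TBT replicates 1 to 3 were the lowest of all 12. TBT results are also given without replicate 4 where it changes them, and those results rest on TBT replicates 1 to 3. Markers of fat cells, 12 genes, summed to a mean of 1613 CPM with DMSO, 6066 CPM with ROSI and 3422 CPM with TBT, and 12 markers of marrow stroma to 4475, 1759 and 3215 CPM. The fat-cell list did not move as 1 with TBT: Lpl made up 2176 CPM of its sum, Adipoq fell by 2.17 on the log2 scale (adjusted p = 0.000192) and Cebpa was at -0.04 ± 0.20. Of 11 myeloid markers only 3 had enough reads for a test, and the 11 summed to between 18.8 and 34.8 CPM in every library, while 5 of 6 lymphoid and 4 of 6 endothelial markers were under 1 CPM in all 12. In bulk RNA, fewer dividing cells and less RNA per dividing cell cannot be told apart.

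With ROSI the mitotic genes fell almost as a block. Of 22 tested, edgeR called 21 lower than with DMSO at an adjusted p under 0.05 and 0 higher, while over all 12323 genes tested 12.6% were lower. Here and for the replication genes, 0 were also higher at an unadjusted p under 0.05 and by DESeq2. The median log2 fold change of the 22 was -1.42, against 0.01 over all genes tested. The libraries of both groups did not overlap for 17 of the 22, against 15.4% of all genes. Among the 22, Ccnb2 alone missed the threshold, at a log2 fold change of -0.88 ± 0.32 (adjusted p = 0.058). Fat-cell markers rose and stromal markers fell in the same comparison, with 10 of 12 and 6 of 11 called, and their part in the result was not tested.

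The proliferation markers showed the size of the fall. Mki67, which codes for the Ki-67 protein that coats mitotic chromosomes, stood at 60.1, 66.7, 49.3 and 77 CPM with DMSO, 12.5, 6.95, 15 and 19.7 with ROSI and 64, 32.6, 53.7 and 24.6 with TBT. All 4 ROSI libraries lay under every DMSO and TBT library, and the log2 fold change of ROSI against DMSO was -2.23 ± 0.30 (SE, adjusted p = 3.41e-05). Top2a, the topoisomerase that untangles sister chromatids, stood at 59.2, 57.6, 46.7 and 75.9 CPM with DMSO, 16, 18, 18.4 and 22.1 with ROSI and 56.3, 57.5, 54.1 and 37.2 with TBT. The ROSI libraries again lay below all others, with a log2 fold change of -1.68 ± 0.18 (adjusted p = 3.64e-06).

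**Figure D2:**
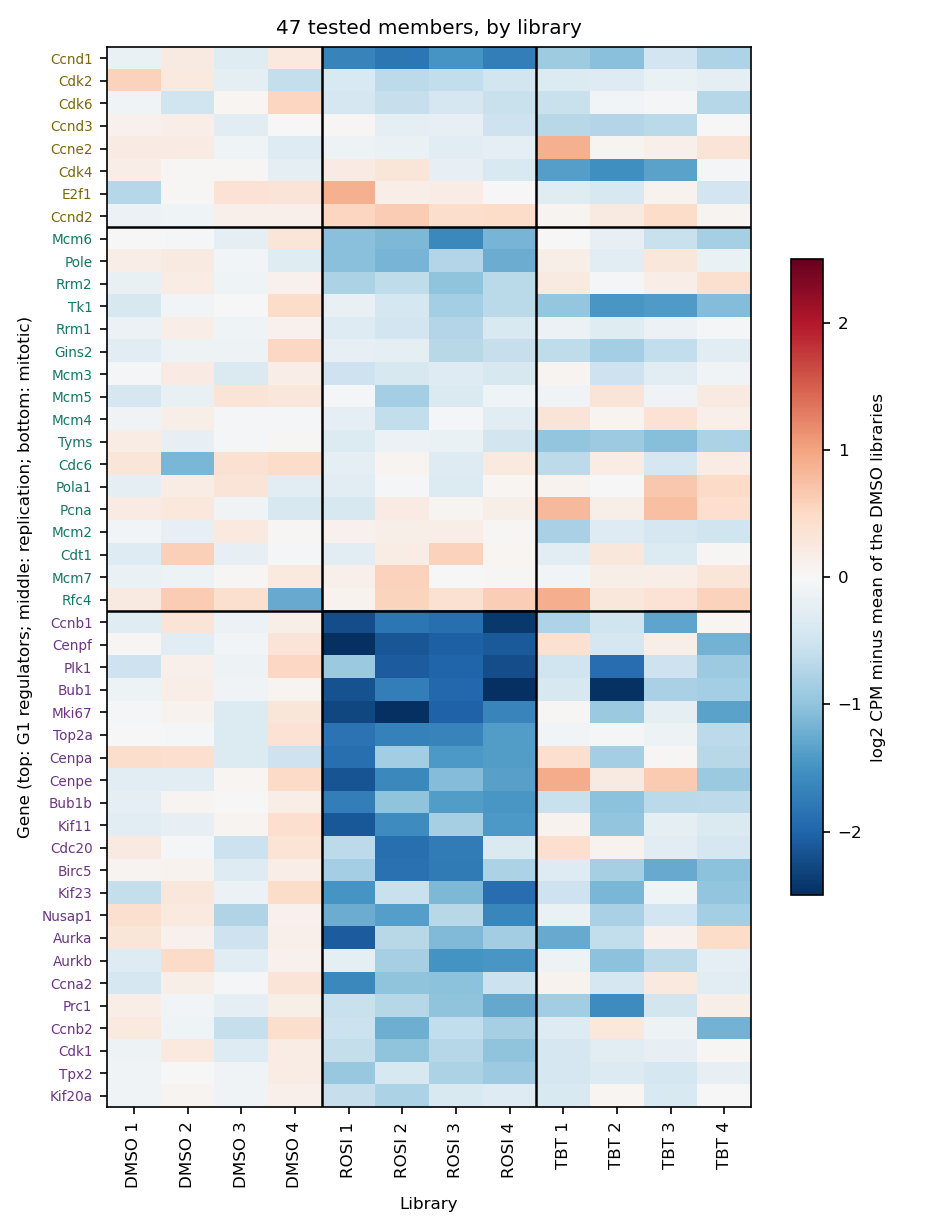
Heatmap of the 47 tested genes (lines of the map) in the 12 libraries (columns), as log2 CPM minus the mean of the 4 DMSO libraries of the same gene. Blue is lower and red is higher, and the colour scale ends at 2.5 on either side. In the lower block of mitotic genes the 4 ROSI columns are blue for nearly every gene, while the replication block is mixed.

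The kinases and cyclins that drive entry into mitosis fell by different amounts. Cyclin B1 (Ccnb1), the partner of Cdk1 at mitotic entry, stood at 3.8, 6.08, 4.28 and 5.37 CPM with DMSO, 0.752, 1.11, 1.03 and 0.602 with ROSI and 2.68, 3.28, 1.71 and 5 with TBT. Its log2 fold change of -2.40 ± 0.37 (adjusted p = 0.000144) was the largest estimate of a fall with ROSI among the 47 genes tested. It rests on 3, 7, 8 and 3 reads in the ROSI libraries. The falls of Cenpf, Plk1, Bub1 and Mki67 lay within 1 SE of it, so the order among these genes is not settled. Plk1, a kinase of mitotic entry and spindle assembly, fell by 2.30 on the log2 scale and Cyclin A2 (Ccna2), which works in S phase and G2, by 1.04. Cdk1 itself fell less, from 19.9 ± 3.67 to 11 ± 1.58 CPM (mean ± SD, n = 4), a log2 fold change of -0.86 ± 0.18. The Aurora kinases Aurka and Aurkb fell by 1.21 and 1.12, both close to the threshold (adjusted p = 0.0415 and adjusted p = 0.0382).

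The genes of the kinetochore and of the checkpoint that watches it fell as well. Cenpf, a large kinetochore protein, stood at 12.6, 10.1, 11.7 and 15.5 CPM with DMSO, 1.76, 2.53, 2.72 and 2.61 with ROSI and 16.1, 9.07, 13.7 and 5.22 with TBT. ROSI was below both other groups in every library, with a log2 fold change against DMSO of -2.34 ± 0.31 (adjusted p = 3.54e-05). Cenpe, the kinetochore motor that brings chromosomes to the spindle equator, stood at 27.1, 27.4, 34.1 and 45.8 CPM with DMSO, 7.02, 10.4, 15.3 and 12.6 with ROSI and 62.9, 38.6, 52 and 17.2 with TBT. With ROSI it was lower in every library, at -1.55 ± 0.32 (adjusted p = 0.00169), and with TBT the spread was wide, with replicate 4 lowest. The centromeric histone Cenpa fell by 1.55, the chromosomal passenger protein Birc5 by 1.41, and the checkpoint kinases Bub1 and Bub1b by 2.27 and 1.48. Cdc20, the activator of the anaphase-promoting complex, fell by 1.42 at only 2.24 ± 0.648 CPM with DMSO (adjusted p = 0.0438).

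Spindle motors and bundling proteins made up the rest of the class. Kif11, which pushes spindle poles apart, went from 15.7 ± 3.67 to 5.53 ± 2.21 CPM, at -1.46 ± 0.28 (adjusted p = 0.000919). Kif23, a motor of the central spindle, and Nusap1, a spindle microtubule binder, fell by 1.33 and 1.27. The falls were smaller for Prc1, which bundles midzone microtubules, at -0.90, for Tpx2, which activates Aurora A on the spindle, at -0.76, and for Kif20a, a motor of cytokinesis, at -0.52. Libraries are not strand-specific, and exons of Kif20a, Prc1, Nusap1, Cdc20 and Ccna2 overlap Cdc23, Rccd1, Oip5, Elovl1 and Exosc9 on the opposite strand in GENCODE M21, so reads of these pairs cannot be told apart.

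Some of the 21 calls depended on single libraries. Leaving out each library in turn gave 15 to 22 mitotic genes lower. Kif23 was lost without DMSO replicate 4 (adjusted p = 0.0505). Aurka was lost without DMSO replicate 1, 2 or 4 or ROSI replicate 1, 3 or 4 (adjusted p up to 0.108), and Aurkb without DMSO replicate 2 or 4 or ROSI replicate 2, 3 or 4 (up to 0.135). Cdc20 was lost without DMSO replicate 1, 2 or 4, ROSI replicate 2 or 3 or TBT replicate 2 or 3 (up to 0.155). Kif20a was lost without DMSO replicate 2 or 4 or ROSI replicate 1 or 2 (up to 0.0867), and Prc1 without DMSO replicate 1 or 4 or ROSI replicate 3 or 4 (up to 0.0886). DMSO libraries also held more reads on sensory receptor genes, which these cells should not use (0.139 to 0.365 CPM per kilobase). ROSI libraries held 0.030 to 0.036 and TBT libraries 0.054 to 0.092. With reads at each library's rate removed from every gene, 17 of 21 tested mitotic genes were lower with ROSI, at a median of -1.27. Aurka, Aurkb and Cdc20 were then not called. The mitotic medians were then -0.37 for TBT against DMSO and 0.92 for TBT against ROSI.

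Fewer replication genes passed with ROSI. Of 17 tested, 4 were lower, where 12.6% of all genes were lower, 0 were higher and 13 did not pass, with a median log2 fold change of -0.29. The 4 were Mcm6, Pole, Rrm2 and Rrm1, and for these 4 the ROSI libraries lay below the DMSO libraries without overlap, as for 15.4% of all genes.

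Mcm6, a subunit of the replicative helicase, stood at 16.4, 16.1, 13.8 and 20.4 CPM with DMSO, 7.77, 7.43, 5.17 and 7.22 with ROSI and 16.6, 14.3, 11.1 and 9.13 with TBT. Every ROSI library was below every other library, with a log2 fold change of -1.29 ± 0.22 (adjusted p = 0.00032). The other subunits did not pass: Mcm2 was at 0.10 ± 0.16, Mcm3 at -0.43 ± 0.16, Mcm4 at -0.29 ± 0.14, Mcm5 at -0.42 ± 0.28 and Mcm7 at 0.19 ± 0.15. By library Mcm2 stood at 17.6, 15.9, 22 and 19 CPM with DMSO, 20.1, 20.5, 20.7 and 18.9 with ROSI and 10.4, 14.7, 13.7 and 13 with TBT, so that DMSO and ROSI overlapped and the low values were those of TBT.

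Pole, the catalytic subunit of the leading-strand polymerase, stood at 13.3, 13.8, 11.2 and 9.48 CPM with DMSO, 5.52, 5.06, 6.99 and 4.81 with ROSI and 13, 9.65, 14.5 and 10.4 with TBT. ROSI was the low group with no overlap, at -1.07 ± 0.21 (adjusted p = 0.0013), while Pola1, of the polymerase that starts new strands, was at -0.18 ± 0.19 (adjusted p = 0.564). Rrm2, the regulated subunit of ribonucleotide reductase, which makes deoxynucleotides, stood at 6.65, 8.66, 7.05 and 8.22 CPM with DMSO, 4.26, 4.74, 3.62 and 4.61 with ROSI and 8.94, 7.33, 8.56 and 10.2 with TBT. It fell by 0.83 (adjusted p = 0.00779), and its partner subunit Rrm1 by 0.48 (adjusted p = 0.0108), a call lost without ROSI replicate 3 (-0.38, adjusted p = 0.0572).

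Pcna, the clamp that holds polymerases on DNA, stood at 75.8, 79.1, 62 and 49.8 CPM with DMSO, 49.4, 75.2, 68.6 and 73 with ROSI and 115, 72.4, 110.2 and 88.3 with TBT. DMSO and ROSI overlapped, at 0.01 ± 0.18, and 3 of the 4 TBT libraries lay above all others. The remaining replication genes, which license origins (Cdc6, Cdt1), join the helicase when origins fire (Gins2), load the clamp (Rfc4) or supply thymidylate (Tyms, Tk1), lay between -0.60 (Tk1) and 0.31 (Rfc4) with ROSI and did not pass. Pcna, Tyms, Ccnb1, Ccnb2 and Ccnd3 have named processed pseudogenes, whose reads can be shared with the parent gene. Exons of Rfc4, Gins2 and Pole overlap Eif4a2, Gse1 and Gm15792 on the opposite strand, and those of Mcm7 overlap Ap4m1 and Cops6. Counts of these replication genes can therefore hold reads of their neighbours.

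**Figure D3:**
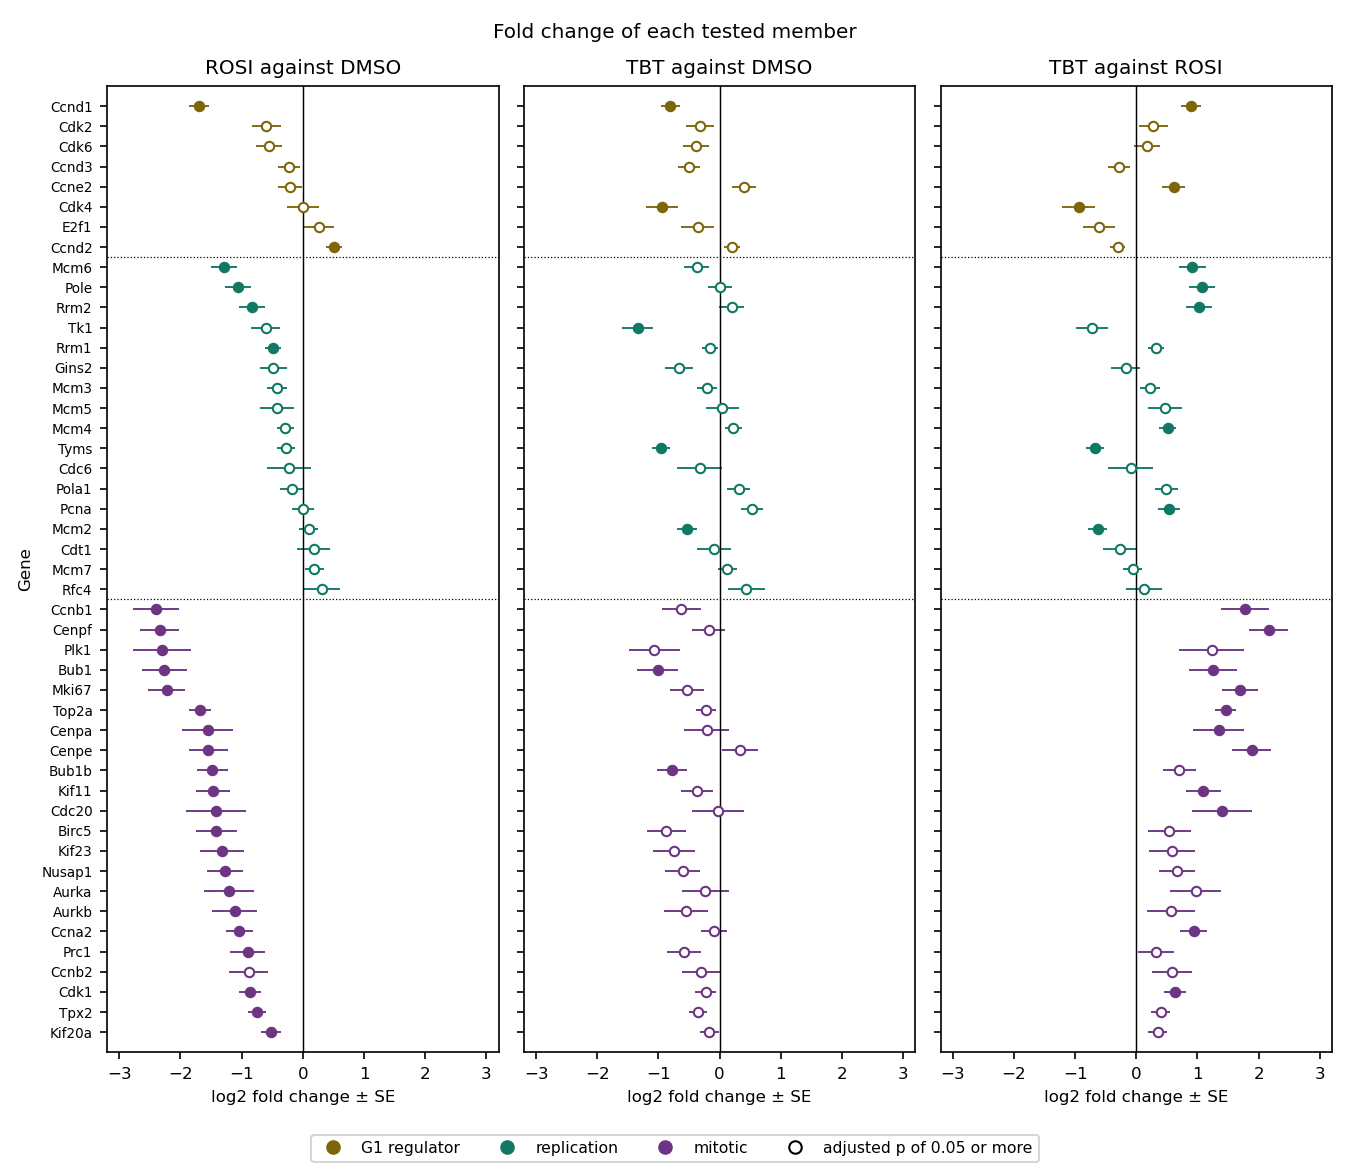
Log2 fold change ± SE of each of the 47 tested genes in the 3 comparisons, with filled points for an adjusted p under 0.05. Dotted lines part the classes, with G1 regulators at the top. With ROSI the mitotic genes at the bottom lie left of 0 in all 22 cases, at a median of -1.42, and the replication genes at a median of -0.29.

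The gap between both classes can be read in each library. The mean log2 CPM of the 22 mitotic genes was 3.42, 3.57, 3.25 and 3.71 with DMSO, 2.07, 2.12, 2.18 and 2.13 with ROSI and 3.27, 2.78, 3.16 and 2.94 with TBT. The mean of the 17 replication genes was 3.95, 4.06, 4.05 and 4.05 with DMSO, 3.70, 3.77, 3.67 and 3.74 with ROSI and 3.90, 3.82, 3.87 and 3.97 with TBT. The mitotic mean minus the replication mean was -0.54 ± 0.19 with DMSO, -1.60 ± 0.07 with ROSI and -0.85 ± 0.21 with TBT (SD, n = 4). The 4 ROSI values, from -1.64 to -1.49, lay apart from the DMSO values, from -0.80 to -0.34, and from the TBT values, from -1.04 to -0.63. This is a description of the chosen genes and carries no test.

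**Figure D4:**
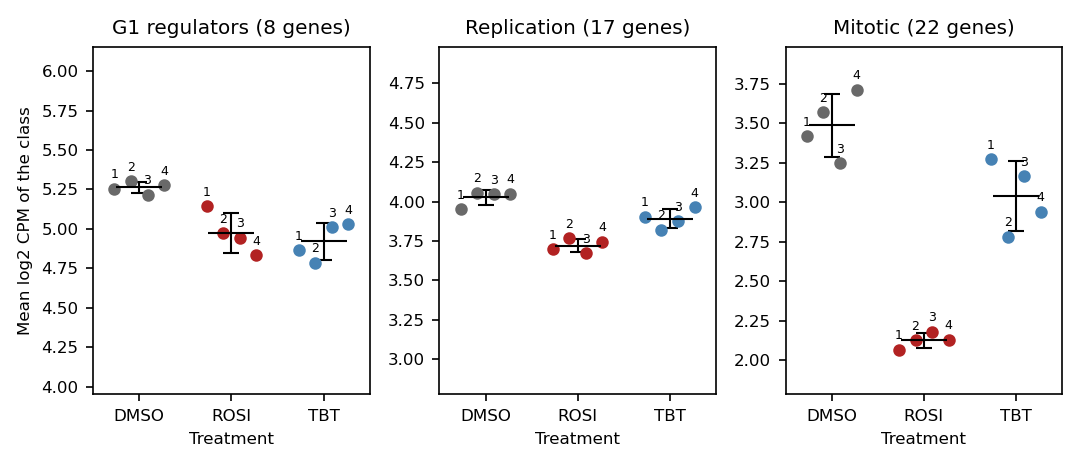
Mean log2 CPM of each class in each library (points, numbered by replicate), with the group mean (long bar) and SD (error bar, n = 4). The 3 panels span the same width on the log2 axis but are centred on different levels. The mitotic class is at 2.12 with ROSI against 3.49 with DMSO and 3.04 with TBT, and the replication class at 3.72, 4.03 and 3.89.

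Of 8 G1 regulators tested with ROSI, Ccnd1 was lower and Ccnd2 was higher, and 6 did not pass. Over all genes 12.6% were lower and 10.0% higher, so these counts, near those shares, are no result about the class. Cyclin D1 (Ccnd1), the cyclin that links growth signals to Cdk4 and Cdk6, stood at 68.4, 90.5, 62.7 and 91.5 CPM with DMSO, 24.1, 21.8, 27.6 and 23.1 with ROSI and 41.5, 37.4, 55.4 and 45.2 with TBT. The 3 groups did not overlap, with ROSI lowest, TBT between and DMSO highest, and ROSI against DMSO was -1.69 ± 0.16 (adjusted p = 1.71e-06). Cyclin D2 (Ccnd2), its relative, stood at 340.0, 351, 410.4 and 409.8 CPM with DMSO, 544, 581, 513 and 516 with ROSI and 397, 438, 515 and 392 with TBT. ROSI lay above DMSO in every library, at 0.51 ± 0.12 (adjusted p = 0.00625), and TBT reached the ROSI range in replicate 3. Cyclin D3 (Ccnd3), the relative induced in many differentiating cells, stood at 40.6, 42.3, 31.2 and 38.2 CPM with DMSO, 38.9, 32.5, 32.7 and 26.3 with ROSI and 23.2, 22.6, 23.7 and 37.6 with TBT, with DMSO and ROSI overlapping (-0.22 ± 0.18).

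None of the Cdk genes among the G1 regulators passed with ROSI. Cdk6 stood at 21.4, 16.1, 23.5 and 33.3 CPM with DMSO, 17, 15.2, 16.9 and 15.4 with ROSI and 15.4, 21.8, 22 and 13.7 with TBT. ROSI and DMSO overlapped, at -0.56 ± 0.21 (adjusted p = 0.0652), and Cdk6 passed without DMSO replicate 2 or without TBT replicate 4 (adjusted p down to 0.0238), which gives 2 G1 regulators lower. Cdk4 was at 0.00 ± 0.26, Cdk2, the partner of cyclin E, at -0.60 ± 0.23, and E2f1, the activating E2F factor, at 0.26 ± 0.26, none past the threshold. Ccne1 and E2f2 had 51 and 21 reads over the 4 DMSO libraries, 26 and 9 with ROSI and 26 and 5 with TBT, and Cdc25c, the phosphatase that activates Cdk1, had 38, 22 and 23. Exons of Ccnd1, Ccnd3, Ccne2, Cdk2 and Cdk4 overlap LTO1, Bysl, Ints8, Pmel and Tspan31 on the opposite strand, so their counts can hold reads of those genes.

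**Figure D5:**
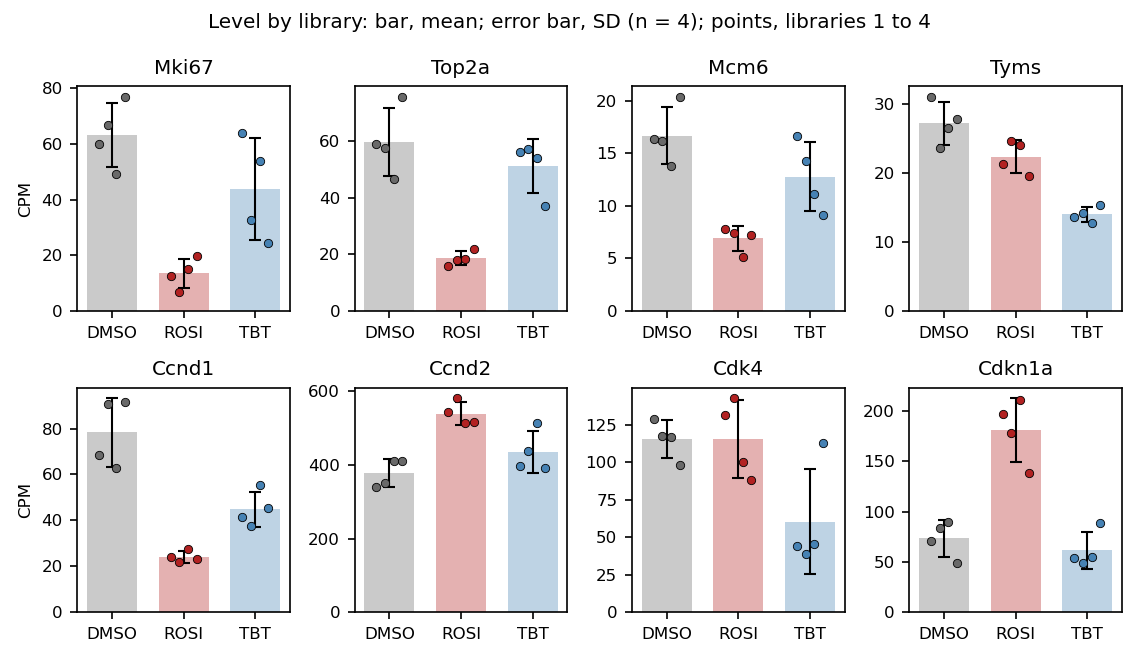
CPM of 7 of these genes and of Cdkn1a in each library (points), with the group mean (bar, from 0) and SD (error bar, n = 4). ROSI is the low group for Mki67, Top2a, Mcm6 and Ccnd1 and the high group for Cdkn1a, while TBT is the low group for Tyms, and TBT replicate 4 lies apart for Cdk4, at 112.6 CPM.

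Other genes of the same pathways, from lists drawn up beside the 50, were counted in the same way. Of 49 tested further genes of mitosis, 29 were lower with ROSI, at a median of -1.03. Among them were Anln, a scaffold of the cleavage furrow, at -1.88 ± 0.17, Hmmr, a spindle protein, at -2.39 ± 0.28, and Aspm, at spindle poles, at -1.99 ± 0.24. Of 39 further replication genes, 5 were lower, at a median of -0.27, a share near the 12.6% of all genes and so no result about that list. The 5 were Rpa1, which coats single-stranded DNA, at -0.72 ± 0.15, Dbf4 and Cdc7, which together fire origins, at -0.95 ± 0.22 and -0.63 ± 0.16, Orc1 at -0.74 and Clspn at -1.29. Orc1 was lost without DMSO replicate 1, 2 or 4 or ROSI replicate 1, 2 or 3 (adjusted p up to 0.114), and Clspn without DMSO replicate 4 (adjusted p = 0.0717). In the promoter windows of these lists, CHR letters were in 33 of 47 mitotic genes and 7 of 33 replication genes, and E2F letters in 8 of 47 and 17 of 33.

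Among 10 Cdk inhibitors and retinoblastoma family genes, 2 rose with ROSI, where 10.0% of all genes were higher. Cdkn1a, which codes for p21, stood at 70.3, 83.5, 89.9 and 49.5 CPM with DMSO, 197, 178, 211 and 138 with ROSI and 54.3, 48.6, 54.8 and 88.9 with TBT. All ROSI libraries lay above all others, and the log2 fold change was 1.30 ± 0.21 (adjusted p = 0.000165). Rb1, the retinoblastoma gene, rose by 0.58 ± 0.14 (adjusted p = 0.00591). Of 13 other E2F, DP and MuvB genes, 4 fell, where 12.6% of all genes were lower. The repressor E2Fs E2f6, E2f7 and E2f8 were at -1.14 ± 0.16, -3.09 ± 0.60 and -1.73 ± 0.55, with E2f7 at only 2.4 ± 0.752 CPM with DMSO, and Lin54, the MuvB subunit that reads the CHR, was at -0.47 ± 0.13, a call lost without DMSO replicate 2 or ROSI replicate 1 (adjusted p up to 0.0591). E2f8 was lost without DMSO replicate 1, 3 or 4 or ROSI replicate 2 or 3 (adjusted p up to 0.113).

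With TBT few mitotic genes passed the test. Of 22 tested, edgeR called 2 lower than with DMSO and 0 higher, where 7.03% of all genes were lower and 8.22% higher, so this count is no result about the class. At an unadjusted p under 0.05, 7 were lower and 0 higher, and DESeq2 called 0 in either direction. The log2 fold change was below 0 for 21 of the 22, at a median of -0.36, with Cenpe at 0.34 ± 0.30 the exception. Libraries did not overlap for 4 of the 22 (Birc5, Bub1, Bub1b and Tpx2), against 8.26% of all genes. The DMSO libraries are shared with the ROSI comparison, so both sets of values rest on the same controls.

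The 2 mitotic genes that fell with TBT are kinases of the spindle checkpoint. Bub1b stood at 5.7, 7.02, 6.63 and 7.59 CPM with DMSO, 1.76, 3.16, 2.33 and 2.21 with ROSI and 4.47, 3.09, 4.06 and 4.13 with TBT. TBT lay below DMSO without overlap, at -0.78 ± 0.24 (adjusted p = 0.0392), and the call was lost without any 1 DMSO library or without TBT replicate 1, 2 or 3 (adjusted p up to 0.112). Bub1 stood at 7.37, 9.12, 7.6 and 8.53 CPM with DMSO, 1.5, 2.21, 1.81 and 1 with ROSI and 6.08, 1.16, 4.49 and 4.35 with TBT. It was at -1.01 ± 0.33 (adjusted p = 0.0491), with TBT replicate 2 lowest, and was lost when any of 10 single libraries was left out, each DMSO and ROSI library and TBT replicates 2 and 3 (adjusted p up to 0.111).

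For the markers of proliferation, TBT libraries spread from the DMSO range down towards ROSI. Against DMSO, Mki67 was at -0.53 ± 0.28 (adjusted p = 0.195) and Top2a at -0.22 ± 0.17 (adjusted p = 0.38). TBT replicates 2 and 4 were the low libraries for Mki67, and replicate 4 was the low library for Top2a, at 37.2 CPM against 54.1 to 57.5. Ccnb1 was at -0.62 ± 0.32 and passed without TBT replicate 4, at -0.90 (adjusted p = 0.0447). Without that library 4 mitotic genes were lower (Ccnb1, Bub1, Bub1b and Prc1) and 1 was higher (Cenpe, a kinesin of the kinetochore, at 0.61, adjusted p = 0.0358).

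Of 17 replication genes, Tyms, Tk1 and Mcm2 fell with TBT. With edgeR 3 were lower and 0 higher, at a median of -0.09, where 7.03% of all genes were lower and 8.22% higher. Pcna was higher at an unadjusted p under 0.05 and by DESeq2, which called 1 gene higher. Tyms, which makes thymidylate for DNA, stood at 31.1, 23.6, 26.5 and 27.8 CPM with DMSO, 21.3, 24.6, 24.1 and 19.7 with ROSI and 13.6, 14.3, 12.8 and 15.4 with TBT. All 4 TBT libraries lay below all others, at -0.96 ± 0.15 against DMSO (adjusted p = 0.000668), and leaving out any library kept the call. Tk1, thymidine kinase, which salvages thymidine for the same pool, stood at 6.89, 8.66, 9.26 and 12.6 CPM with DMSO, 8.02, 6.64, 4.92 and 5.62 with ROSI and 4.47, 3.09, 3.21 and 4.13 with TBT. TBT was again below all other libraries, at -1.34 ± 0.25 (adjusted p = 0.00291), with Afmid overlapping its exons on the opposite strand. Mcm2 was at -0.53 ± 0.16 (adjusted p = 0.0343), a call lost without DMSO replicate 1, 3 or 4 or TBT replicate 1 or 3 (adjusted p up to 0.114).

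The other replication genes did not pass with all 4 TBT libraries. Pcna was at 0.54 ± 0.18 (adjusted p = 0.0519), just outside the threshold, and passed without TBT replicate 2, TBT replicate 4 or ROSI replicate 1 (adjusted p down to 0.0171). Gins2 was at -0.66 (adjusted p = 0.0601), with every TBT library below every DMSO library, and passed without TBT replicate 4, at -0.76 (adjusted p = 0.0221). Mcm6, Pole and Rrm2, which fell with ROSI, were at -0.38 ± 0.21, 0.01 ± 0.20 and 0.20 ± 0.20, none past the threshold.

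Of the 8 G1 regulators, 2 fell with TBT and 0 rose, by edgeR, by DESeq2 and, for rises, at an unadjusted p under 0.05. Over all genes tested, 7.03% were lower and 8.22% higher. Ccnd1 was at -0.80 ± 0.16 (adjusted p = 0.00381) and kept its call without any 1 library. Cdk4, the kinase partner of the D-type cyclins, stood at 129, 117, 117 and 98.5 CPM with DMSO, 132, 143, 100.2 and 87.9 with ROSI and 44.1, 39.2, 45.4 and 113 with TBT. TBT replicates 1 to 3 lay far below all other libraries, while TBT replicate 4 lay in the DMSO range. The log2 fold change was -0.94 ± 0.27 (adjusted p = 0.026) and -1.41 without TBT replicate 4 (adjusted p = 9.45e-06), while the call was lost without DMSO replicate 1 or 2 or TBT replicate 1, 2 or 3 (adjusted p up to 0.0858). Ccnd3 showed the same split among TBT libraries, at -0.51 ± 0.18 (adjusted p = 0.0639) with all 4 and -0.70 without replicate 4 (adjusted p = 0.00256), and also passed without DMSO replicate 3. TBT replicates 1 to 3 also had the lowest values of GC-rich against GC-poor genes, at -0.55, -0.44 and -0.26 on the log2 scale for the most GC-rich minus the most GC-poor genes, against 0.11 in replicate 4. Cdk4 kept its call against DMSO with GC-corrected offsets, with or without TBT replicate 4. Mcm2 lost its call against DMSO under both of these settings. What part the GC difference has in the split of the Cdk4 values among TBT libraries was not tested.

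The other lists were counted for TBT as well. Of 49 further mitotic genes, 3 were lower and 1 was higher, where 7.03% of all genes were lower and 8.22% higher, so these counts are no result about the list. They were Ect2, which starts cytokinesis, at -1.14 ± 0.30, Ube2c, which works with the anaphase-promoting complex, at -1.25 ± 0.33, Ttk, a checkpoint kinase, at -0.95 ± 0.29, and Smc4, a condensin subunit, at 0.80 ± 0.25. Of 39 further replication genes, the origin recognition genes Orc2 and Orc6 rose by 0.58 ± 0.18 and 0.55 ± 0.17, and Chaf1b, which loads histones on new DNA, was at -1.11 ± 0.35. Of the Cdk inhibitors Cdkn2a was lower, at -1.28 ± 0.34, and Cdc25a, a phosphatase that activates Cdk2, was higher, at 0.63 ± 0.19. Each of these 9 calls was lost when at least 1 single library was left out, with adjusted p up to 0.15. With GC-corrected offsets Orc2, Orc6, Smc4 and Cdc25a also lost the call. TBT replicate 4 lay apart from the other TBT libraries for Smc4, at 190 CPM against 312 to 526. The same held for Cdkn2a, at 10.9 CPM against 2.57 to 4.83. Cdkn1a, high with ROSI, was at -0.25 ± 0.21 with TBT (adjusted p = 0.42).

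The comparison of TBT with ROSI tests the difference between both ligands itself, at 50 nM and 500 nM. Of 22 mitotic genes, 11 were higher with TBT by edgeR and 10 by DESeq2, and 0 were lower by either tool or at an unadjusted p under 0.05, with a median of 0.96 against 0.02 over all genes, of which 12.8% were higher and 11.1% lower. The libraries did not overlap for 8 of the 22, against 10.9% of all genes. Cenpf was at 2.17 ± 0.32 (adjusted p = 0.000143), Cenpe at 1.89 ± 0.32 (adjusted p = 0.000482), Ccnb1 at 1.78 ± 0.39 (adjusted p = 0.00384), Mki67 at 1.70 ± 0.30 (adjusted p = 0.000702) and Top2a at 1.46 ± 0.18 (adjusted p = 2.41e-05). Ccna2, Cdk1, Kif11, Cenpa, Bub1 and Cdc20 were the others, at log2 fold changes from 0.63 (Cdk1) to 1.40 (Cdc20). Of these, Kif11 was lost without TBT replicate 1 (adjusted p = 0.0521), and Cdk1 without ROSI replicate 2 or 4 or TBT replicate 3 (adjusted p up to 0.0652). Cenpa and Bub1 were lost without ROSI replicate 1, 3 or 4 or TBT replicate 1 or 3 (up to 0.133 and 0.129), and Cdc20 without any 1 DMSO library, ROSI replicate 1, 2 or 3 or TBT replicate 1, 2 or 3 (up to 0.155). Bub1 also lost its call with GC-corrected offsets, and Cdk1 with GC-corrected offsets without TBT replicate 4. Ccnb2 was at 0.58 (adjusted p = 0.207) and passed without TBT replicate 4, at 0.81 (adjusted p = 0.0432).

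Single replication genes differed between the ligands in both directions. Over all genes tested, 12.8% were higher and 11.1% lower, so the count of replication genes lower, near that share, is no result about the class. Of 17, 5 were higher with TBT than with ROSI: Pole at 1.07 ± 0.21 (adjusted p = 0.00177), Rrm2 at 1.03 ± 0.21 (adjusted p = 0.00216), Mcm6 at 0.91 ± 0.22 (adjusted p = 0.00751), Pcna at 0.53 and Mcm4 at 0.52. The other 2 that passed were lower, Tyms at -0.68 ± 0.15 (adjusted p = 0.00356) and Mcm2 at -0.63 ± 0.16 (adjusted p = 0.00936), and Tk1 was at -0.73 ± 0.26 (adjusted p = 0.0506), and at -0.77 without TBT replicate 4 (adjusted p = 0.0422). Mcm4 was lost without TBT replicate 3 (adjusted p = 0.0543), and Pcna was lost without DMSO replicate 3, any 1 ROSI library or TBT replicate 1 or 3 (adjusted p up to 0.137). Pcna also lost its call with GC-corrected offsets.

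Of 8 G1 regulators, 2 were higher with TBT than with ROSI and 1 was lower, where 12.8% of all genes were higher and 11.1% lower. The count lower, near that share, is no result about the class. Ccnd1 was higher, at 0.89 ± 0.16 (adjusted p = 0.00102). Cyclin E2 (Ccne2), which activates Cdk2 at the start of S phase, stood at 18.5, 18.5, 14.9 and 12.8 CPM with DMSO, 14.5, 14.2, 13.3 and 13.4 with ROSI and 29.8, 16.8, 17.5 and 20.2 with TBT. It was higher with TBT at 0.61 ± 0.19 (adjusted p = 0.0314), with TBT replicate 1 far above the others, and was lost without that library or without any 1 ROSI library (adjusted p up to 0.153). Ccne2 also lost its call with GC-corrected offsets. Cdk4 was lower, at -0.94 ± 0.27 (adjusted p = 0.0174) and at -1.42 without TBT replicate 4 (adjusted p = 2.75e-06), and was lost without ROSI replicate 2 or TBT replicate 1, 2 or 3 (adjusted p up to 0.0661). Ccnd2 was at -0.31 ± 0.12 (adjusted p = 0.0814), and passed without TBT replicate 3, and Ccnd3 passed without TBT replicate 4, at -0.48.

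In the other lists, 20 of 49 mitotic genes were higher with TBT than with ROSI and 1 lower, with Anln at 1.73 ± 0.17, Hmmr at 1.79 ± 0.29 and Ncapg, a condensin subunit, at 1.00 ± 0.18. The 1 lower was Cks1b, a Cdk-binding protein, at -0.60 ± 0.19. Of 39 replication genes 5 were higher, which is the share of 12.8% found over all genes. They were Cdc7 at 0.74 ± 0.16, Orc6 at 0.68 ± 0.17, Orc3 at 0.48 ± 0.14, Wdhd1 at 0.70 and Clspn at 1.06, while Pold2, a polymerase delta subunit, was lower at -0.85 ± 0.25. Pold2 stood at 16.3 CPM in TBT replicate 4 against 6.43 to 9.26 in the other TBT libraries. Cdkn1a was lower by 1.56 (adjusted p = 5.7e-05), and Cdkn2c, another Cdk inhibitor, by 0.54. Cdkn2b and the retinoblastoma relative Rbl2 were higher, at 0.49 ± 0.14 and 0.54 ± 0.16. E2f5, E2f6, E2f7, E2f8 and Lin54 were higher, with E2f6 at 1.04 ± 0.16. Of the genes in this paragraph, Cks1b, Pold2, Orc3, Wdhd1, Clspn, Cdkn2b, Rbl2, E2f8 and Lin54 each lost the call without at least 1 single library (adjusted p up to 0.165). With GC-corrected offsets Pold2, Orc3, Wdhd1, Cdkn2c and Lin54 lost the call.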

How the data were processed

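RNA was depleted of ribosomal RNA and read as single 50 nt reads without strand information, per the labels' protocols. The authors deposited raw read counts per gene symbol and regularized values on a log2 scale. The submitters' processing notes name mm9, FastQC, SAMtools and DESeq2, with the aligner and counting program not given in the sources used here. Counts of all 12 libraries were fitted with edgeR 4.0.16 in R 4.3.3 (TMM scaling, filterByExpr, quasi-likelihood test, no covariates), and p-values were adjusted by Benjamini-Hochberg over all 12323 genes tested, with a threshold of 0.05. The deposited log2 values served 1 alternative, tested with limma 3.58.1, and DESeq2 1.42.0 another. Class means use log2 CPM with a prior count of 2. Libraries held between 4027152 and 7474654 reads, which limits the precision of genes at a few CPM.

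The 50 genes and all further lists were chosen with earlier results of these data known. Given by library are, in each class and comparison, the 3 called genes with the smallest p, plus Mki67, Top2a, Ccnb1, Mcm2, Pcna, Ccnd1, Ccnd2, Ccnd3, Cdk4 and Cdk6. Of the other lists, up to 3 genes with the smallest p in each direction are named, and all where 5 or fewer passed. Within groups no library was a copy of another, since the lowest chi-square per degree of freedom of a pair was 4.663, and pairs across groups were not compared. The erythroid list summed to between 48.2 and 129.6 CPM per library. Scripts were tested on simulated counts. Promoter windows and overlapping exons come from RefSeq and GENCODE M21 on GRCm38, so no coordinate is on mm9.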

Additional observations from a re-analysis of the deposited data

Results flagged for a closer look

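In 171 sets of 4 libraries (the CPM of each of the 50 genes, 3 class means, the Rn45s share, the sensory receptor level and the fat-cell and stromal marker sums, in each group), 10 had a library whose distance to its nearest neighbour, as a share of the range, passed Dixon's limit for 4 values. Chance alone gives about 1 in 20.

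In TBT replicate 4, Cdk4 stood at 112.6 CPM against 39.2 to 45.4 in the other TBT libraries, Ccnd3 at 37.62 against 22.6 to 23.7, Top2a at 37.18 against 54.1 to 57.5, and the Rn45s share at 6.851% against 0.399% to 0.670%. In DMSO replicate 1 the mean log2 CPM of the replication genes was 3.953 against 4.046 to 4.056. In DMSO replicate 2 Cdc6 stood at 1.17 CPM against 3.80 to 4.27. In DMSO replicate 3 the fat-cell markers summed to 2433 CPM against 1286 to 1427. In DMSO replicate 4 Gins2 stood at 15.49 CPM against 8.79 to 9.83. In ROSI replicate 1 E2f1 stood at 15.04 CPM against 8.02 to 9.18, and Plk1 at 1.504 CPM against 0.401 to 0.517.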

How the results depend on the processing

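None of the genes run under the alternatives changed direction while called. These were the genes given by library, and all called genes of the 50 and of the further lists. Of their results 3199 kept their side of the threshold, 439 lost a call, 24 gained one and 0 reversed while called. Genes not called could change sign: Pcna and Cdk4 in ROSI against DMSO each ran from -0.11 to 0.13 with single libraries left out. For genes under 5 CPM few reads limit what can be called, and the causes of the changes below were not tested unless fewer genes or libraries were used. In ROSI against DMSO, mitotic genes lower numbered 11 of 12 tested at a mean of at least 5 CPM, and G1 regulators lower numbered 2 with upper-quartile factors, with only the 2 groups compared, and with GC-corrected offsets without TBT replicate 4. In TBT against DMSO, mitotic genes lower numbered 0 with DESeq2, at a mean of at least 5 CPM, with only the 2 groups compared, at an adjusted p of 0.01 and with background reads subtracted, 1 without a filter, and 5 with GC-corrected offsets without TBT replicate 4. Replication genes higher numbered 1 (Pcna) with DESeq2 size factors, DESeq2, no filter and limma on the deposited log2 values, and G1 regulators lower numbered 1 at an adjusted p of 0.01. In TBT against ROSI, mitotic genes higher numbered 7 of 12 tested at a mean of at least 5 CPM. They numbered 7 of 18 tested with only the 2 groups compared, and 6 of 22 at an adjusted p of 0.01. At that p, replication genes higher numbered 3, G1 regulators lower 0 and G1 regulators higher 1. G1 regulators lower numbered 2 with upper-quartile factors, DESeq2, GC-corrected offsets and GC-corrected offsets without TBT replicate 4, and G1 regulators higher numbered 1 with only the 2 groups compared and with both GC corrections. The GC and background alternatives were chosen after seeing the data.

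Leaving out each library in turn gave, for ROSI against DMSO, 15 to 22 mitotic, 3 to 5 replication and 1 to 2 G1 genes lower. For TBT against DMSO it gave 0 to 4 mitotic, 2 to 4 replication and 1 to 3 G1 genes lower, and 0 to 1 mitotic and 0 to 1 replication genes higher. For TBT against ROSI it gave 7 to 12 mitotic, 3 to 6 replication and 1 to 2 G1 genes higher, and 2 to 3 replication and 0 to 2 G1 genes lower.

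Replicate numbers gave no sign of a pairing across groups: deviations of 12 same-numbered pairs correlated at -0.43 to 0.14, with 2 over 0.1. Unlike-numbered pairs reached 0.38 (ROSI replicate 1 with TBT replicate 4). Within DMSO and within ROSI, replicates 1 and 2 and replicates 3 and 4 were the most alike. Their chi-square per degree of freedom was 4.971 to 10.52, against 11.36 or more for the other pairs, and a shared batch was not tested. With the replicate block, mitotic genes lower numbered 18 in ROSI against DMSO and 0 in TBT against DMSO, and 8 were higher in TBT against ROSI.

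Over all genes tested, calls in TBT against DMSO numbered 1879, and 4124 without TBT replicate 4, 1199 with only the 2 groups compared and 1160 with the replicate block. Upper-quartile factors turned the split from 1013 higher and 866 lower to 748 and 1143.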
